A study of Mus musculus with 2 samples.

Results

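Sarcomere isoform genes encode the alternative versions of the contractile proteins that skeletal, cardiac, smooth muscle and non-muscle cells use. They were chosen by name alone: the heavy and light chains of myosin, the troponins, tropomyosins, myosin binding proteins C, alpha-actinins, myozenins, myomesins, calsequestrins and SERCA calcium pumps whose symbols end in a plain number, with Acta1, Actc1, Mylpf, Ckm, Pvalb, Ttn and Neb. Of the 38972 genes in the deposited table, 58 met this rule. By the muscle in which each is mainly known, 18 were grouped as fast skeletal, 18 as slow skeletal or cardiac, 8 as common to striated muscle or developmental, 4 as smooth muscle and 10 as non-muscle. A few are used more widely than their group says, Atp2a2, Tpm1 and Tpm3 above all.

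A sarcomere is built from thick filaments of myosin that slide past thin filaments of actin, and calcium bound by troponin C lets them interact. Fast fibres use their own genes for many of these parts, slow fibres share several of theirs with the heart, and some genes, such as cardiac troponin I in the adult, belong mainly to the heart. In the mouse, cardiac muscle cells sheathe the large pulmonary veins and smooth muscle lies in airway and vessel walls, while skeletal muscle belongs to the chest wall and diaphragm and is not a part of the lung.

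RNA came from cells that the labels call fibroblasts of the lung, from C57Bl/6 mice, with 1 library for each of 2 genotypes. The control library came from Foxf1fl/fl mice, which carry loxP-flanked Foxf1 and no Cre, treated with bleomycin, a drug that scars the lung. The knockout library came from myoFoxf1 KO mice, which carry the same floxed alleles and αSMA-Cre-ERT2, a tamoxifen-dependent Cre under the smooth muscle actin promoter, and the floxed line began as a hybrid of strains before breeding to C57Bl/6. The protocol text gives bleomycin at 1 or 2 U/kg weekly for 2 to 4 weeks and tamoxifen at 40 mg/kg on days 2 to 4 for transgenic mice, without saying which schedule these samples had. Bleomycin is missing from the knockout sample's title, though the design text gives it for both genotypes, and neither the ages, the number of animals pooled nor the way the cells were isolated is stated. The Cre acts in cells that use the smooth muscle actin promoter, which include smooth muscle as well as myofibroblasts.

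The libraries held 16145959 control and 15122824 knockout reads assigned to genes. Foxf1, the targeted gene, had 158 control and 49 knockout reads (log2 ratio -1.27, -1.77 to -0.81). Neither library was of fibroblasts alone: Lyz2, a macrophage gene, had 202101 and 328490 reads, and Scgb1a1, of airway club cells, 128983 and 25577, beside 3824 and 1431 for the fibroblast collagen Col1a1. Each genotype had 1 library, so no difference could be checked against replicates and p-values are not given. Levels are given as reads and as CPM (reads scaled to a common library size with TMM factors), and ratios as log2 of knockout over control CPM with an exact 95% interval that covers counting error only. A gene was called higher or lower in the knockout library when it differed at least 2-fold and the interval excluded 1. A gene counted as measured when it reached 1 CPM in either library and 20 reads over both. In bulk RNA, fewer cells of a type and less RNA per cell cannot be told apart.

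Most genes of fast skeletal muscle were higher in the knockout library by large factors. Genes of slow and heart muscle were mixed: cardiac Tnni3, Myl7 and Myh6 were lower, Mybpc1, Tnnt2 and Tnnt1 higher, and 5 measured ones were not called. Among the 46 measured members, 24 were called higher, against a background of 9.37% of all measured genes, and 7 lower, against 14.2%. Since 19 members were measured only through their level in the knockout library and 2 only through the control, they had to differ, and the counts over every gene with a read are set beside: of 57 such members, 26 were called higher, where 7.26% of all genes with a read were, and 7 lower, where 10.6% were. The last of the 58, Myl10, had no read in either library. The fast skeletal group gave 15 of 18 genes higher and none lower by that count, the striated and developmental group 6 of 8 higher and none lower, the slow and cardiac group 4 higher and 3 lower of 18, the smooth muscle group 1 higher and 2 lower of 4, and the non-muscle group 2 lower of 9. After GC and length trends were subtracted from all ratios, 24 measured members were higher, where 5.36% of all genes were, and 4 lower, where 10.9% were.

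Summed over the 18 fast skeletal genes, the control library held 216 reads (exact Poisson 95% interval 188 to 247) and the knockout library 1884 (1800 to 1971), an 11.6-fold higher CPM (10.1 to 13.4). Their median log2 ratio was 3.82 with genes at 0 reads set at their bound, where the median of all genes with a read was 0. The 8 striated and developmental genes summed to 209 and 843 reads, 5.35-fold higher (4.6 to 6.26). The slow and cardiac group was dominated by Atp2a2, a calcium pump used by most cells. Without it, the other 17 summed to 849 and 585 reads, a ratio of 0.916 (0.823 to 1.02) that spans no difference. The median log2 ratio of these 17 was 0.14 with genes at 0 reads set at their bound, and -0.24 over the measured ones. Apart from Atp2a2, these transcripts were rare in both libraries. The fast group amounted to 11.99 CPM in the control library and 139 CPM in the other, set against 3134 CPM for the 10 non-muscle genes in the knockout.

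**Figure D1:**
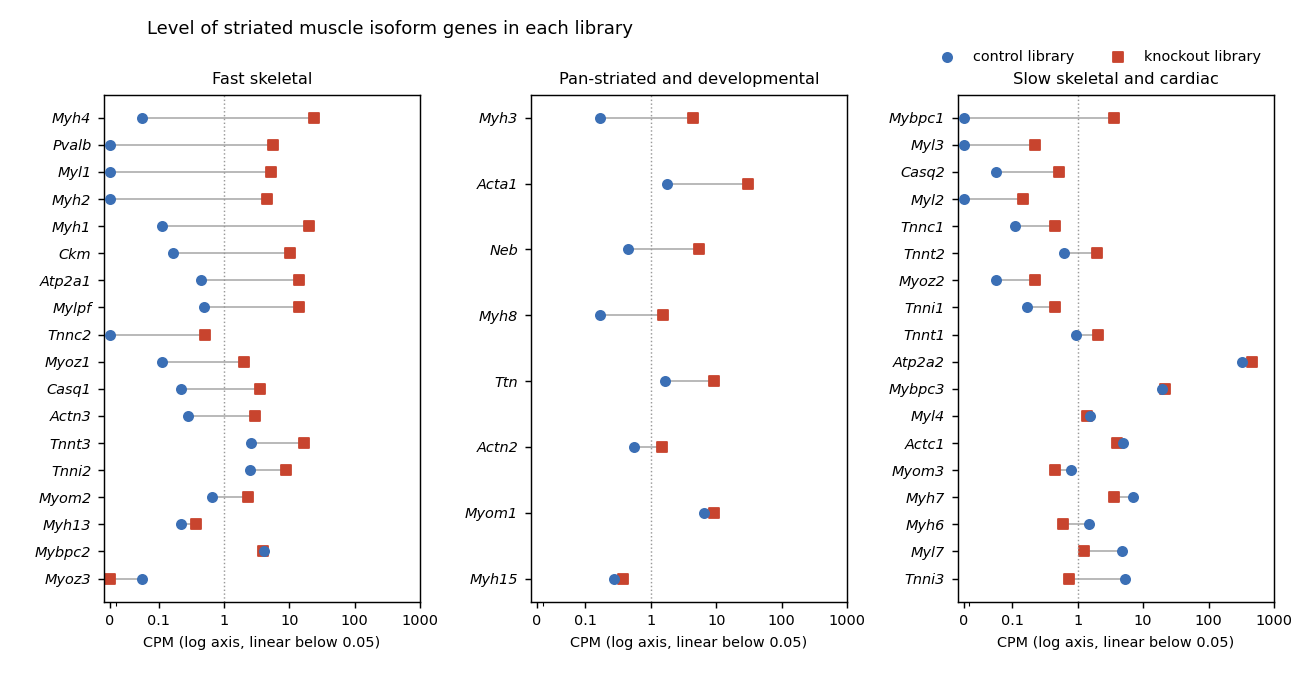
CPM of the 44 striated muscle genes in the control library (blue circles) and the knockout library (red squares), 1 library each, on a log axis that is linear below 0.05, with genes ordered by ratio within each panel and a dotted line at 1 CPM. Fast skeletal genes sit to the right in the knockout, up to 23.8 CPM for Myh4, whereas Tnni3, Myl7, Myh6 and Myh7 lie to the left of their control values.

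The 250 bases before the annotated start of 4 members are shown because they bracket the pattern: Acta1 and Myh4 had the most knockout reads of the genes called higher, Mylpf the highest FPKM of the fast group in the knockout library, and Myl7, a cardiac gene, was called lower. Their RefSeq starts lay 39, 217, 0 and 0 bases from the deposited gene starts of Acta1, Myh4, Mylpf and Myl7. Sequences are from RefSeq on GRCm38.p6, 5′ to 3′ on the gene's strand. Capitals mark 4 motifs searched on both strands: the E-box CAGCTG, a site type bound by myogenic factors, the TATA motif TATAAA, the CArG box bound by serum response factor, and the MEF2 box.
Acta1, chr8:123894776-123895025, minus strand: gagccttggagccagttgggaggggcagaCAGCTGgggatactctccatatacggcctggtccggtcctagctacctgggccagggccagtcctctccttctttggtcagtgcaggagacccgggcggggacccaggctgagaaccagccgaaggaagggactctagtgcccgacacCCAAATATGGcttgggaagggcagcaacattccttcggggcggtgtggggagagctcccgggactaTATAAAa
Myh4, chr11:67237562-67237811, plus strand: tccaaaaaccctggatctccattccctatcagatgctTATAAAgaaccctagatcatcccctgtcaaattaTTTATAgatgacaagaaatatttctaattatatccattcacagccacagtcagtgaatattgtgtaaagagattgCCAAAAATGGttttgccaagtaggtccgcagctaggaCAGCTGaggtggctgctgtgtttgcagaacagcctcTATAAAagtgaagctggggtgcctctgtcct
Mylpf, chr7:127211358-127211607, plus strand: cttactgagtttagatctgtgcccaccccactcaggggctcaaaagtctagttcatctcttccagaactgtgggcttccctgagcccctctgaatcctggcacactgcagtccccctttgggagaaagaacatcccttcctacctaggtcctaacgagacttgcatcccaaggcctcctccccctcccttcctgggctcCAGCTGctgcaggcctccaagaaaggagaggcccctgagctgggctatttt
Myl7, chr11:5898783-5899032, minus strand: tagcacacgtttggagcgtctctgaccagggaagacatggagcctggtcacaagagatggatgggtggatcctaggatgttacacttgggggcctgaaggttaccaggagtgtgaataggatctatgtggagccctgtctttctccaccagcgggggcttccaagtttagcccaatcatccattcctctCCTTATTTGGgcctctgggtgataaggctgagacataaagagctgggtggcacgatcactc
Myh4 held CAGCTG starting at -67 and Mylpf at -51 from the annotated start, Acta1 at -221, and Myl7 had none. A CArG box started at -73 in Acta1, -104 in Myh4 and -61 in Myl7, so it occurred in genes of both directions. No matches overlapped in the member promoters. A promoter was found for 49 of the 58 members. Some of their RefSeq starts lay far from the deposited gene start: 16356 bases for Tnni1, 7762 for Myl2, 5445 for Myh13 and 1701 for Tnni3. The windows of Tnni1 and Myl2 hold CAGCTG, and that of Tnni3, a member called lower, lies inside the deposited gene. The E-box CAGCTG occurred in 10 of the 18 found for members called higher and 0 of the 7 for members called lower, and in 16 of all 49 (32.7%), so members without a call held it too. Of 17452 gene promoters of the same length, 12.3% held it. In the same order of higher members, lower members, all 49 and all promoters, the CArG box occurred in 2, 2, 7 and 1.29%, TATAAA in 7, 0, 10 and 11.9%, and the MEF2 box in 1, 0, 3 and 0.499%. These are matches of letters and not measured binding.

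Thick filaments showed the widest range. Myh4, the heavy chain of the fastest IIb fibres, had 1 control read and 322 knockout reads, a log2 ratio of 8.09 (6.25 to 14.05). Myh1, of IIx fibres, had 2 and 270 reads, a ratio of 7.13 (5.62 to 10.54). Myh2, of IIa fibres, had 0 and 62 reads and was 27.5-fold higher with 3 reads taken for the control. The exact lower limit of its log2 ratio was 4.44. Its deposited control estimate was a fraction of a read that rounds to 0. Each of these adult fast heavy chains was therefore close to undetected in the control library. Myh3, the embryonic heavy chain, had 3 and 60 reads (4.49, 3.12 to 7.05), and Myh8, the perinatal one, 3 and 21 reads (3.00, 1.47 to 5.61). Myh13, known from eye muscles, had 4 and 5 reads and was not measured, as was Myh15 with 5 and 5.

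These 6 genes from Myh3 to Myh13 lie side by side on the plus strand of chromosome 11, from 67078300 to 67371586 in GRCm38, within 293 kb. In their order along the chromosome, Myh3, Myh2, Myh1, Myh4, Myh8 and Myh13, the ratios were 4.49, a bound only, with 0 control reads, 7.13, 8.09, 3.00 and 0.66. The 3 adult fast chains stood next to each other, and Myh1 and Myh4 had the highest values. The bound of Myh2 does not place it above Myh3, since their knockout reads were 62 and 60. The lowest value was at the far end, where the interval of Myh13 (-1.48 to 3.07) holds 0. The paralogs share sequence: 26.9% of the 50-base words of the longest Myh2 transcript, 26.7% of those of Myh1, 21.4% of Myh8 and 18.9% of Myh4 also occur in other genes, so the split of reads among them is uncertain.

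The cardiac and slow heavy chains had fewer reads in the knockout library. Myh7, the slow and beta-cardiac chain, had 124 control and 49 knockout reads, a log2 ratio of -0.92 (-1.44 to -0.44) that falls short of the call, and -1.24 with a call when libraries were scaled by total reads. Myh6, the alpha-cardiac chain next to it on chromosome 14, 3760 bases away, had 27 and 8 reads (-1.30, -2.69 to -0.17) and was called lower. After removal of the trends on GC content and length Myh6 stood at -0.94 without a call. This pair shares 22.2 to 22.6% of its 50-base words. Antisense genes also share exonic bases with heavy chains, up to 6.07% each for Myh7 and 8.11% for Myh1.

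The make-up of the striated heavy chains differed between the libraries as a result. By FPKM, which is per length, Myh7 and Myh6 held 67.7% and 19.8% of the family in the control. In the knockout Myh4 held 42.8%, Myh1 34.0%, Myh3 7.96% and Myh2 7.0%, and Myh7 4.56%. In reads, Myh7 was 73.4% of 169 in the control (exact binomial 95% interval 66.0 to 79.9) and 6.11% of 802 in the knockout (4.55 to 8.0).

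**Figure D2:**
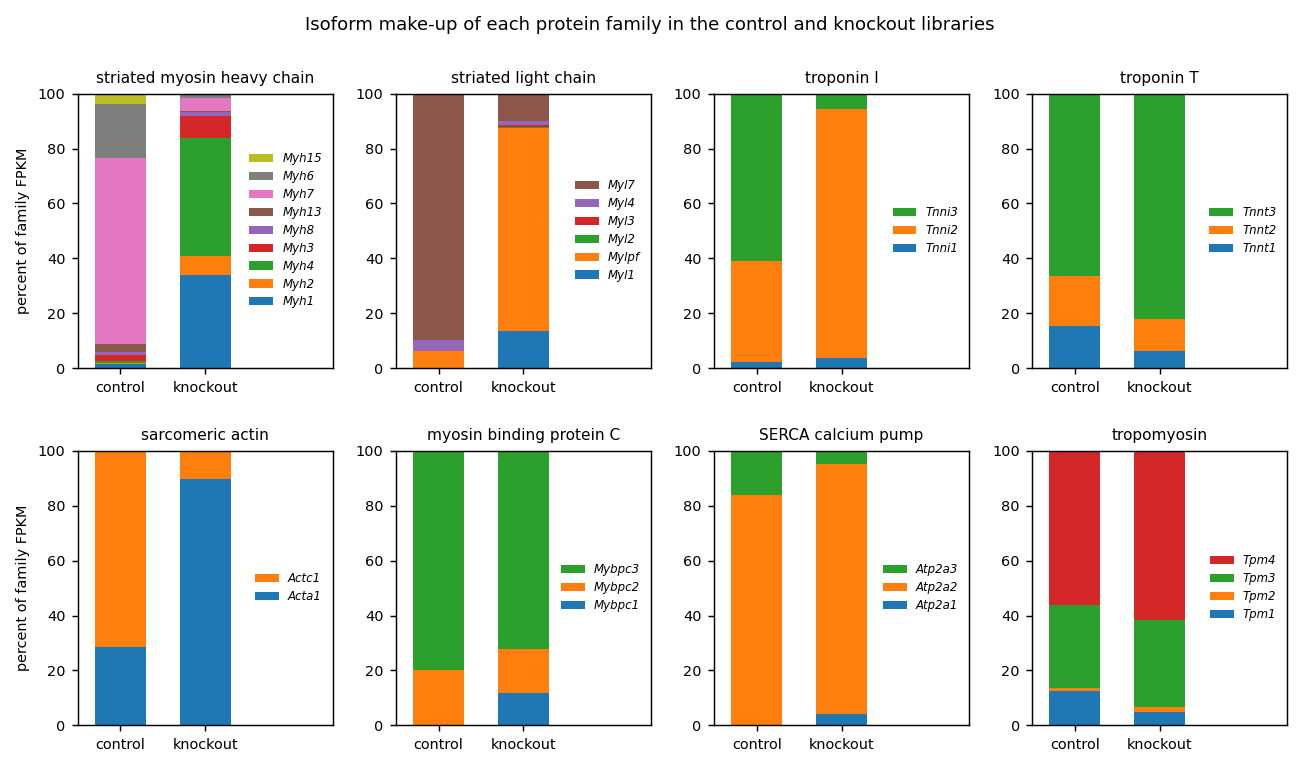
Share of the summed FPKM of each protein family held by each isoform (stacked, in percent) in the control and knockout libraries, 1 library each and so without error bars. Myh7 and Myl7 fill most of the control bars of their families, and Myh4, Myh1 and Mylpf most of the knockout bars, while tropomyosins and calcium pumps stay dominated by Tpm4, Tpm3 and Atp2a2.

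Light chains split along the same line. Mylpf, the fast regulatory light chain, had 9 and 192 reads (log2 ratio 4.74, 3.87 to 5.98). Myl1, the fast essential light chain, had 0 and 71 reads and was 31.4-fold higher with 3 control reads taken (log2 lower limit 4.64). Myl7, the atrial regulatory light chain, had 84 and 17 reads (-1.87, -2.74 to -1.13) and was called lower. The striated light chains as summed here leave out Myl9 and the more abundant Myl6. Myl7 held 89.9% of their summed FPKM in the control and 9.99% in the knockout library, where Mylpf held 73.8%. Myl4, the atrial essential chain, was not called, with 28 and 19 reads (-0.15). Of the 50-base words of Myl1, 23.4% also occur in other genes, most in the pseudogene Mylf-ps. The ventricular and slow light chains Myl2, with 0 and 2 reads, and Myl3, with 0 and 3, were at the limit of detection in both libraries.

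Among the myosin binding proteins C, which brace the thick filament, the slow skeletal form was called and the others were not. Mybpc1, named the slow skeletal form, had 0 and 49 reads and was 21.7-fold higher with 3 control reads taken (log2 lower limit 4.09). Which fibres its reads came from was not tested. Mybpc2, the fast form, had 74 and 54 reads (-0.04, -0.58 to 0.48), the one measured fast gene without a call. Mybpc3, the cardiac form, was the most abundant of the family in both libraries, with 352 and 292 reads (0.14, -0.09 to 0.37).

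Thin filaments gave the most abundant member of the pattern. Acta1, skeletal muscle actin, on chromosome 8 from 123891767 to 123894736, had 32 control and 416 knockout reads, or 1.78 and 30.7 CPM, with a log2 ratio of 4.09 (3.59 to 4.68). Actc1, cardiac actin, had 89 and 53 reads (-0.34, -0.86 to 0.17) and was not called. Acta1 thus held 28.6% of sarcomeric actin FPKM in the control and 89.9% in the knockout. The smooth muscle actin gene Acta2, which is no member, had 565 and 225 reads (-0.92, -1.15 to -0.69) and was not called. Neb, the giant ruler of skeletal thin filaments, had 8 and 73 reads (3.51, 2.55 to 4.86).

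Several troponin I and T genes lie in pairs, and the members of a pair did not always have the same direction. Tnni2 and Tnnt3, the fast troponins I and T, 54425 bases apart on chromosome 7, were both higher, with 45 and 121 reads (1.82, 1.33 to 2.36) and 46 and 225 reads (2.69, 2.24 to 3.19). Tnni3, cardiac troponin I, fell from 96 to 10 reads (-2.80, -3.96 to -1.91), the lowest ratio of all members. Tnnt1, slow troponin T, only 1922 bases from Tnni3 on the same strand, was higher with 17 and 28 reads (1.10, 0.21 to 2.09). The call of Tnnt1 was lost with total reads alone, at 0.80. So the closest neighbours among the troponins had ratios on opposite sides of 0, with intervals that do not overlap. Tnnt2, cardiac troponin T, which immature skeletal muscle also uses, was higher with 11 and 27 reads (1.66, 0.65 to 2.86), unlike cardiac troponin I. Its neighbour Tnni1, slow troponin I, had 3 and 6 reads and was not measured.

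Of troponin I FPKM, Tnni2 held 36.7% (control) and 90.4% (knockout), and Tnni3 61.1% and 5.66%. In reads Tnni3 was 66.7% of 144 (58.3 to 74.3) and 7.30% of 137 (3.56 to 13.0), so the summed reads of the family were close in the libraries while its make-up was not. Troponin C reads were too few to compare, with 2 and 6 for the slow and cardiac Tnnc1 and 0 and 7 for the fast Tnnc2. The gene Ube2c covers 74.0% of the exonic bases of Tnnc2 on the opposite strand, and the library kit does not mark strand. Tnni3 shares 4.17% of its exonic bases with Dnaaf3 on the same strand.

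**Figure D3:**
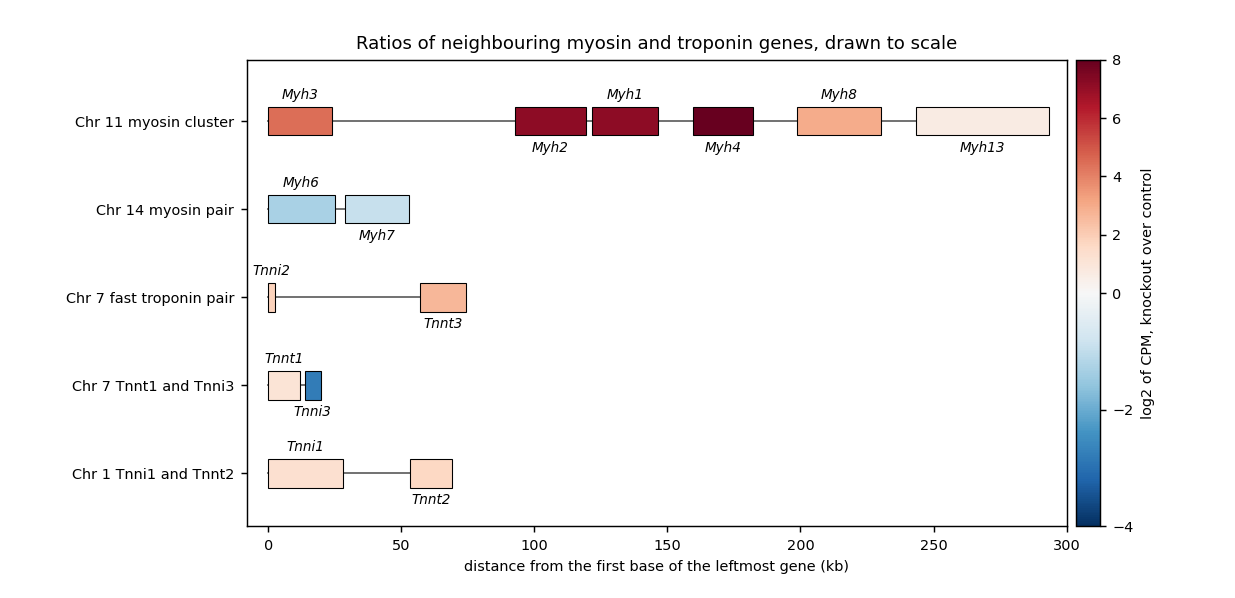
Neighbouring myosin heavy chain and troponin genes drawn to scale as boxes by distance in kb from the first base of the leftmost gene, coloured by the log2 ratio of knockout over control CPM of 1 library each. Red boxes in the chromosome 11 cluster reach 8.09 at Myh4, both chromosome 14 genes are blue, and Tnnt1 (1.10) and Tnni3 (-2.80) differ in colour side by side. Myh2, with 0 control reads, is coloured by 7.18, a value that rests on the prior count.

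Of the fast skeletal genes for proteins that anchor filaments, Actn3, Myoz1 and Myom2 were higher, and Myoz3 was not measured. Actn3, the alpha-actinin of fast Z-discs, had 5 and 41 reads (3.30, 2.11 to 5.14), and Actn2, the alpha-actinin of all striated muscle, 10 and 20 (1.36, 0.25 to 2.67). Actn2 stayed above 2-fold with total reads alone, at 1.06, but without a call. Myoz1, a fast fibre binder of calcineurin at the Z-disc, had 2 and 27 reads (3.83, 2.17 to 7.28), whereas Myoz2, the slow and cardiac form, had 1 and 3 and Myoz3 1 and 0. Ttn, the giant spring of the sarcomere, had 30 and 124 reads (2.43, 1.87 to 3.08). The M-band genes differed from each other: Myom2 had 12 and 32 reads (1.78, 0.83 to 2.92) and was higher, Myom1 had 118 and 124 (0.48) and was not called, and Myom3 had 14 and 6 and was not measured.

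The members that handle calcium or energy in fast fibres, Atp2a1, Casq1, Pvalb and Ckm, were higher. Atp2a1, the fast muscle SERCA pump, had 8 and 191 reads (4.89, 3.98 to 6.22), and 21.9% of its exonic bases are shared with Rabep2 on the opposite strand. Casq1, the calcium store protein of fast fibres, had 4 and 48 reads (3.82, 2.55 to 5.93), and its cardiac and slow counterpart Casq2 1 and 7 (2.65, 0.26 to 8.71), a call made only without the filter. Pvalb, the calcium buffer of fast fibres, had 0 and 77 reads and was 34.1-fold higher with 3 control reads taken (log2 lower limit 4.76). Ckm, muscle creatine kinase, had 3 and 139 reads (5.70, 4.37 to 8.24), and an antisense gene covers 15.5% of its exonic bases. The pumps of other cells remained the bulk of the family: Atp2a2 had 5816 and 6243 reads (0.51, 0.46 to 0.56), and Atp2a3, found in blood and epithelial cells, was lower with 1107 and 321 reads (-1.37, -1.56 to -1.20), or -0.84 without a call after the GC and length trends were removed.

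**Figure D4:**
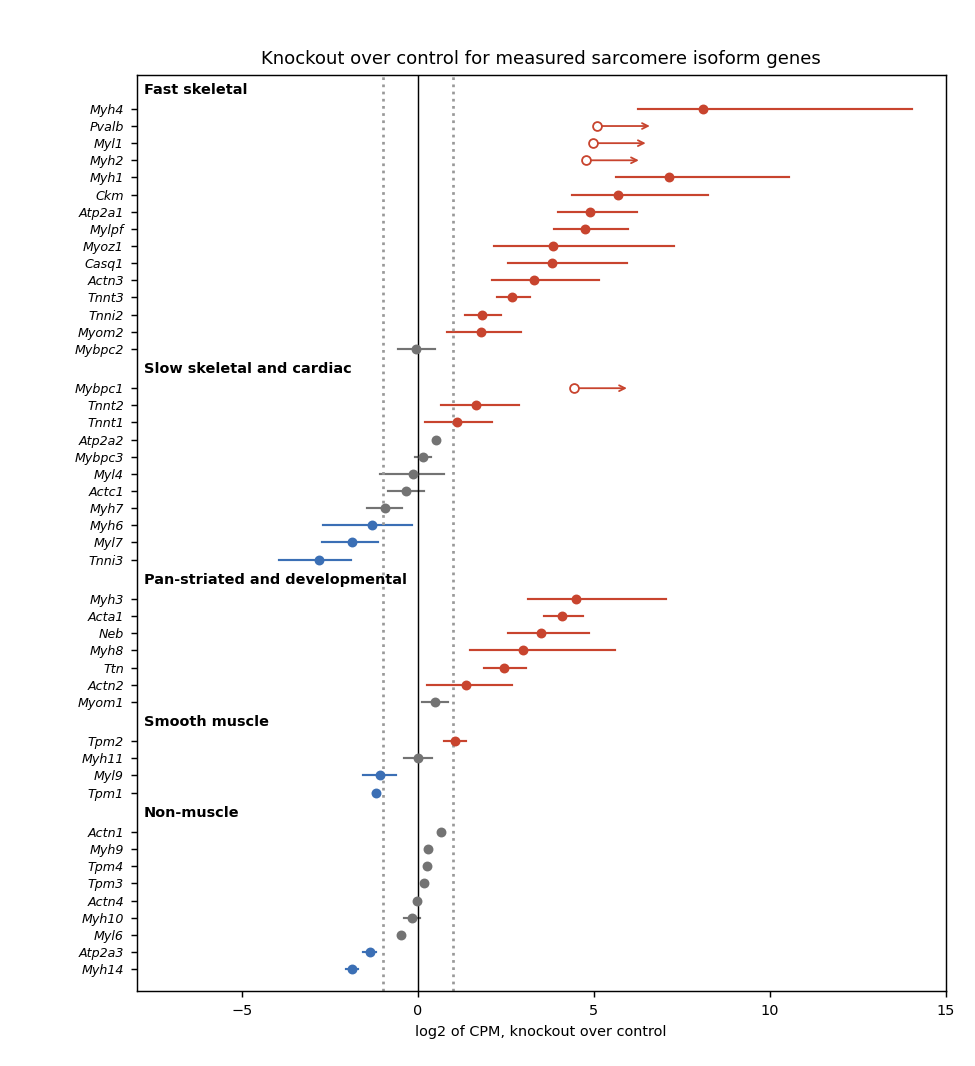
Log2 ratio of knockout over control CPM for the 46 measured members by group (points) with exact 95% intervals for counting error (lines), red where called higher, blue where called lower and grey where not called. Open circles with arrows are lower bounds for genes with 0 control reads, and dotted lines mark 2-fold. The fast skeletal points run from -0.04 for Mybpc2 to 8.09 for Myh4.

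Smooth muscle isoforms did not follow the skeletal ones. Myh11, the smooth muscle heavy chain, had 131 and 99 reads (0.01, -0.39 to 0.39), close to equal CPM of 7.27 and 7.30. Myl9, the smooth muscle regulatory light chain, was lower with 146 and 52 reads (-1.07, -1.57 to -0.61), but stood at -0.39 without a call after the GC and length trends were removed. Tpm1, used in fast striated, cardiac, smooth muscle and other cells, was lower with 4650 and 1517 reads (-1.21, -1.29 to -1.12). Tpm2, used in smooth and in skeletal muscle, was higher with 139 and 218 reads (1.06, 0.75 to 1.38), and 0.74 without a call with total reads alone. The 2 muscle tropomyosins thus had ratios of opposite sign, with intervals that do not overlap.

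Non-muscle members were abundant and mostly within 2-fold. Myh9, the main non-muscle heavy chain, had 13453 and 12374 reads (0.29), Actn4 6555 and 4839 (-0.03), Tpm3 10536 and 8978 (0.18), Tpm4 7010 and 6305 (0.26), Actn1 3848 and 4534 (0.65), Myl6 8419 and 4526 (-0.49) and Myh10 389 and 262 (-0.16). Myh14, a non-muscle heavy chain found in epithelia, was lower with 1718 and 354 reads (-1.87, -2.04 to -1.70). Its share of the non-striated heavy chain FPKM was 17.7% in the control and 4.65% in the knockout. Both called non-muscle genes, Myh14 and Atp2a3, were lower beside the epithelial markers Epcam, Sftpc, Scgb1a1, Foxj1, Cdh1 and Krt7. Of these markers 5 of 6 were lower, against 14.2% of all measured genes, with summed CPM of 13240 and 4207. With the GC and length trends removed 4 were lower, where 10.9% of all genes were, and Sftpc stood at -0.83 without a call. The part of those cells in the result was not tested.

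Other genes that striated muscle needs were mixed. Of 54 accessory genes of excitation, energy supply and sarcomere upkeep, 12 were called higher and 1 lower among the 29 measured, and 24 higher and 1 lower over all with a read. The background shares of higher calls were 9.37% and 7.26%. The median log2 ratio was 0.48 over the measured genes and 1.18 over all with a read, with genes at 0 reads set at their bound. The calls lay among genes with few reads: with at least 50 reads required, 2 were higher and the median was -0.05, and 3 or 4 were higher by FPKM and 7 at 4-fold. Xirp2 (1 and 43 reads, 5.2), Ckmt2, the muscle mitochondrial creatine kinase (2 and 22 reads, 3.54), and Tcap, which caps titin (5 and 39 reads, 3.23), had the largest measured ratios. Ryr2, the calcium release channel of the heart, was the one called lower, with 47 and 13 reads (-1.41, -2.45 to -0.53), the same direction as Tnni3 and Myl7. Other genes of the list known from the heart went both ways, and none of those named next was measured. Pln (2 and 8 reads), Csrp3 (1 and 8) and Nppa (1 and 4) had ratios above 0, Pln and Csrp3 with a call without the filter. Mylk3 (14 and 3 reads) and Sln (2 and 0) had ratios below 0. Ryr1, the skeletal channel, had 194 and 139 reads (-0.07) and was not called. Nor were other skeletal genes with reads in both libraries, among them Cacna1s, the voltage sensor of excitation (72 and 34 reads, -0.67), Pygm, muscle glycogen phosphorylase (261 and 139 reads, -0.50), and Eno3, muscle enolase (110 and 116 reads, 0.48).

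Among 19 muscle transcription regulators, 2 were called higher and 2 lower of 11 measured. The background shares of all measured genes were 9.37% higher and 14.2% lower, so these are few calls to read. Myog, which drives the last step of skeletal muscle differentiation, had 0 and 30 reads. It was 13.3-fold higher with 3 control reads taken (log2 lower limit 3.34). Myod1, a determination factor of skeletal muscle, had 0 and 12 reads, with a call only in the absence of the filter, and Myf6 had 0 and 1. Pax7 and Myf5, of muscle stem cells and early myoblasts, and Nkx2-5, of the heart, had 0 reads in both libraries. Gata4, a factor of heart and mesothelium, was lower with 23 and 2 reads (-2.87, -6.24 to -1.10), as was Srf (1767 and 527 reads, -1.33). Srf stood at -0.06 without a call after the GC and length trends were removed. Mkl2, a partner of Srf, was higher with 528 and 1094 reads (1.46, 1.31 to 1.61).

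Smooth muscle genes outside the rule gave 2 of 14 measured lower, near the background of 14.2%, and none higher, with a median of -0.60. The count lower was 5 with total reads alone and 6 at 1.5-fold. The 2 were Cnn1 (57 and 16 reads, -1.40) and Smtn (432 and 125 reads, -1.38), and Smtn stood at -0.53 without a call after the trends were removed. Non-muscle contractile genes gave no call in 11 measured, with Actg1 at 66493 and 35808 reads (-0.48) and Vim at 51698 and 49983 (0.36) having the most reads.

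**Figure D5:**
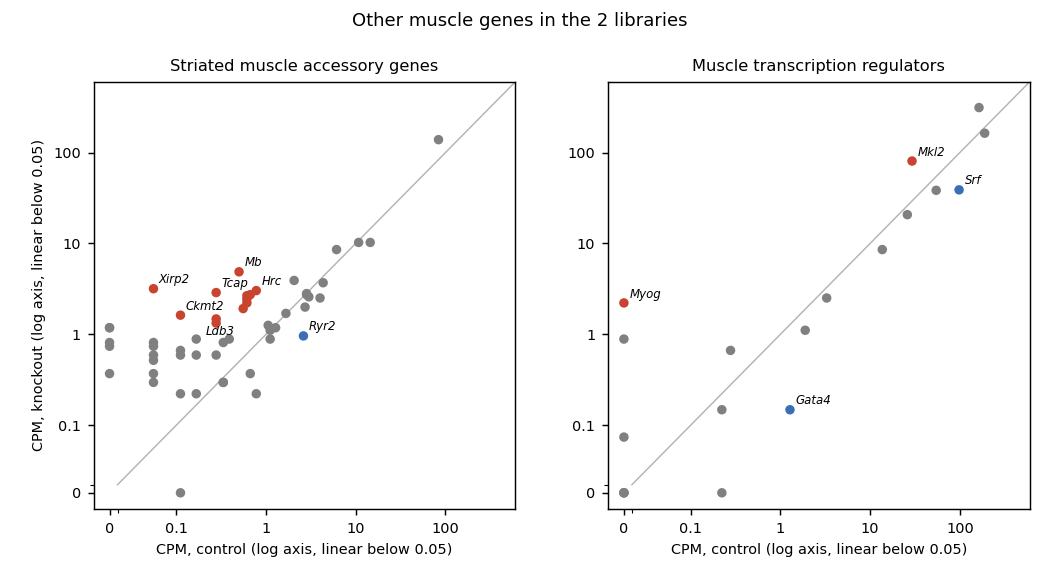
CPM in the control (x) and knockout (y) libraries, both on log axes linear below 0.05, of striated muscle accessory genes and muscle transcription regulators, 1 library each, red where called higher, blue where called lower, grey otherwise, with the diagonal marking equal CPM and most called genes named. Xirp2, Mb and Myog lie above the diagonal and Ryr2 and Gata4 below it.

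Markers of other cells differed between the same libraries. For the counts below, 9.37% of all measured genes were called higher and 14.2% lower, and several lists hold few genes. Fibroblast markers gave 8 of 11 lower and none higher (summed CPM 1581 and 731), led by Inmt (-2.70), Gpx3 (-2.02) and Mfap4 (-1.82). Macrophage markers gave 5 of 9 higher and none lower (14930 and 32440 CPM), led by Itgam (1.51), Mrc1 (1.46) and Ctss (1.28), and 2 higher with total reads alone. All 5 mesothelial markers were lower (688 and 217.5 CPM), Upk3b at -2.65, Wt1 at -1.75 and Lrrn4 at -1.67 among them. With the GC and length trends removed 4 were lower, where 10.9% of all genes were, and Krt19 stood at -0.77 without a call. Of 5 measured platelet and red cell genes 2 were lower, the globins Hba-a1 (-1.72) and Hbb-bs (-1.31), in a list summing to 1187 and 437 CPM. Both globins lost the call after the trends were removed, at -0.94 for Hba-a1 and -0.99 for Hbb-bs. Adipocyte markers gave 1 of 3 measured higher, Ucp1 of brown fat with 103 and 191 reads (1.30, 0.95 to 1.66), a call lost with total reads alone, while Adipoq had 0 and 2 reads. Pericyte markers gave 2 of 6 higher, Cspg4 (1.15) and Rgs5 (1.07), and 3 lower, Pdgfrb (-1.14), Notch3 (-1.06) and Kcnj8 (-1.05), with summed CPM of 27.8 and 27.8. After the GC and length trends were removed 1 pericyte marker was higher and 0 were lower, and with total reads alone 0 were higher and 3 lower. The part of any of these in the sarcomere result was not tested, and with 1 library per genotype the genotype and the library cannot be told apart.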

How the data were processed

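Per library, the authors deposited an estimated count and an FPKM value for every gene. TopHat, Cufflinks, GRCm38 and mm10 appear in the submitters' processing notes, with no role or version, and Nextera XT libraries are named in the labels' protocols. The deposited estimated counts were rounded to whole numbers here, and those not whole within 0.001 made up 74.2% (control) and 71.1% (knockout) of the genes that had reads. The deposited FPKM implied the same length in both libraries within 1% for 100% of 12714 genes. FPKM served only for levels per length and as an alternative.

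Totals were 16145959 and 15122824 reads, scaled with TMM (edgeR 4.0.16, R 4.3.3), where 1 CPM equals 18.0 control and 13.6 knockout reads. Ratios used a prior count of 0.5 and Clopper-Pearson intervals (scipy 1.17.1, Python 3.11.15) over the whole table of 14455 measured genes. They were also run on simulated Poisson counts. Those hold counting error only, so that run cannot speak to variation between animals or libraries. Where 1 library had 0 reads, 3 reads in that library bounded the fold, which leaves out the counting error of the other library. Without molecular identifiers, reads need not be independent molecules. Longest transcripts of GENCODE M21 (GRCm38) gave GC content and length for 98.8% of measured genes, whose lowess trends (span 0.3, statsmodels 0.14.6) were subtracted as an alternative, and the shared 50-base words. The other alternatives were total reads, DESeq2 1.42.0 size factors, log2 FPKM plus 1 or 0.1, other filters, folds and priors.

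The members, the 11 companion lists of 152 symbols (2 were found by gene ID under another symbol, 1 of them already listed under its older symbol) and the tests were chosen with earlier results of these data known. Members with at least 20 reads over both libraries or 1 CPM in either are named, as are, of each companion list, the 3 called genes with the largest ratio in each direction, or the 2 with most reads where none was called. Other genes named were chosen after their values were seen. Some companion genes and 1 further marker list are not reported here.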

Additional observations from a re-analysis of the deposited data

How the results depend on the processing

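No paired analysis was possible because each genotype had 1 library, which also left no library that could be left out. The count of fast skeletal genes called higher stayed within 1.5 times of 14 under every alternative run. Other counts moved by more. With log2 FPKM plus 1, which tests fewer genes, members higher went from 24 to 12, the striated and developmental group from 6 to 1, the slow and cardiac group from 3 to 0 and smooth muscle from 1 to 0, and with log2 FPKM plus 0.1 these were 13, 1, 1 and 0. Total reads alone, which shifted the median of all measured genes from 0.01 to -0.31, left 0 smooth muscle genes higher, and FPKM shifted that median to -0.20 or -0.29. A minimum of 50 reads left 0 slow and cardiac genes higher. Subtraction of the GC and length trends took members lower from 7 to 4, smooth muscle from 2 to 1 and non-muscle from 2 to 1. The 4-fold rule left 1 member lower, 1 slow and cardiac gene higher and 1 lower, 0 smooth muscle genes higher and 0 lower, and 0 non-muscle genes lower. An interval excluding 2-fold left 1 slow and cardiac gene higher, and 0 smooth muscle genes higher and 1 lower. The 1.5-fold rule added 1 non-muscle gene higher, Actn1. Where a rule or filter did not make the difference, the cause was not tested. No called member reversed. All 46 measured members kept their side of the call with DESeq2 size factors and with a prior count of 2. Calls on genes with under 20 reads over both libraries, such as Casq2, Tnnc2 and Myod1, were made only without the filter and rest on few reads.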
